A study of Triticum aestivum with 12 samples.

Results

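The 200 most abundant leaf transcripts of bread wheat (Triticum aestivum) were chosen by their level: they are the 200 genes with the highest mean CPM (counts scaled by the library total) over the 6 fully irrigated libraries. They make up 200 of the 99386 gene identifiers in the count table, and all 200 passed the filter on low counts, which left 57226 tested genes. PolyA RNA was sequenced from leaves of wild-type plants of the variety Chinese Spring L42 in 12 libraries, 3 in each of 4 groups. The drought_LRM plants received 30 ml of water at each of 2 waterings a week and a foliar spray of 0.5% LRM, a biostimulant made from microalgae. The drought_water plants received 30 ml and a spray of water, the irrigated_LRM plants 180 ml and LRM, and the irrigated_water plants 180 ml and a spray of water. Sprays were repeated every 14 days, and no label ties the libraries to different plants. The p-values therefore reflect only how far these libraries spread, which may be technical.

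In green leaves of grasses a small number of nuclear genes supplies much of the messenger RNA. Background knowledge places among them the small subunit of Rubisco, the enzyme that fixes carbon dioxide, the chlorophyll a/b-binding proteins of the light-harvesting antennae, and enzymes of the Calvin cycle and of photorespiration. Water shortage closes stomata, limits the supply of carbon dioxide, and is known to lower messenger RNAs of photosynthesis in many plants. Bread wheat is hexaploid, and most of its genes exist as similar copies on the A, B and D subgenomes. The identifiers in the files carry a chromosome arm but no gene name, and 0 were found in the RefSeq genes of IWGSC CS RefSeq v2.1. The 200 transcripts are therefore described by identifier, chromosome and level, no function is assigned to any of them, and the leaf label could not be checked against marker genes. Counts of near-identical copies may include each other's reads, so every named gene is uncertain in that respect.

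Total counts ran from 17541561 (replicate 2) to 42569702 in drought_LRM, and from 31381925 to 47305447 in the other groups. The members were deeply covered, with 4164 counts or more for each member in each library. Their mean in the irrigated libraries spanned 19.1-fold, from 681 to 13026 CPM, with a median of 1575 CPM. At the lower limit, the last 2 members, Traes_5DL_91F71E89E and Traes_5BL_28CCE5325, had 696 and 681 CPM. The first 2 genes outside, Traes_3B_CCE51F9D8 and Traes_6DL_18CB2742C, had 678 and 678 CPM. Single libraries stood apart from their groups in these transcripts: irrigated_water 1 held less of them than irrigated_water 2 and 3, and drought_water 3 held more than drought_water 1 and 2.

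In irrigated leaves 48.5% of counts, on average, came from these 200 genes, and the share was lower in droughted leaves sprayed with LRM. The members held 43.5%, 40.5% and 40.6% of counts in drought_LRM replicates 1, 2 and 3. They held 46.1%, 46.5% and 49.0% in drought_water, 48.0%, 49.1% and 49.0% in irrigated_LRM, and 45.1%, 49.8% and 50.3% in irrigated_water. Each drought_LRM library thus lay below every library of the other 3 groups, whereas drought_water overlapped irrigated_water, because irrigated_water 1 lay below all 3 drought_water libraries. The means were 41.5% ± 1.68 in drought_LRM, 47.2% ± 1.58 in drought_water, 48.7% ± 0.572 in irrigated_LRM and 48.4% ± 2.86 in irrigated_water (SD, n = 3). With LRM the difference between drought and full irrigation was -7.16 percentage points, and with water it was -1.19, which is smaller than the SD of either group. The water value depended on single libraries: it was -2.83 without irrigated_water 1, -2.10 without drought_water 3, -0.64 without drought_water 1, -0.49 without irrigated_water 2 and -0.25 without irrigated_water 3. The irrigated values chose the members and are given without a test. In bulk leaf RNA, fewer cells of a type and less RNA per cell cannot be told apart, and a share of counts says nothing of the amount of RNA per leaf.

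**Figure D1:**
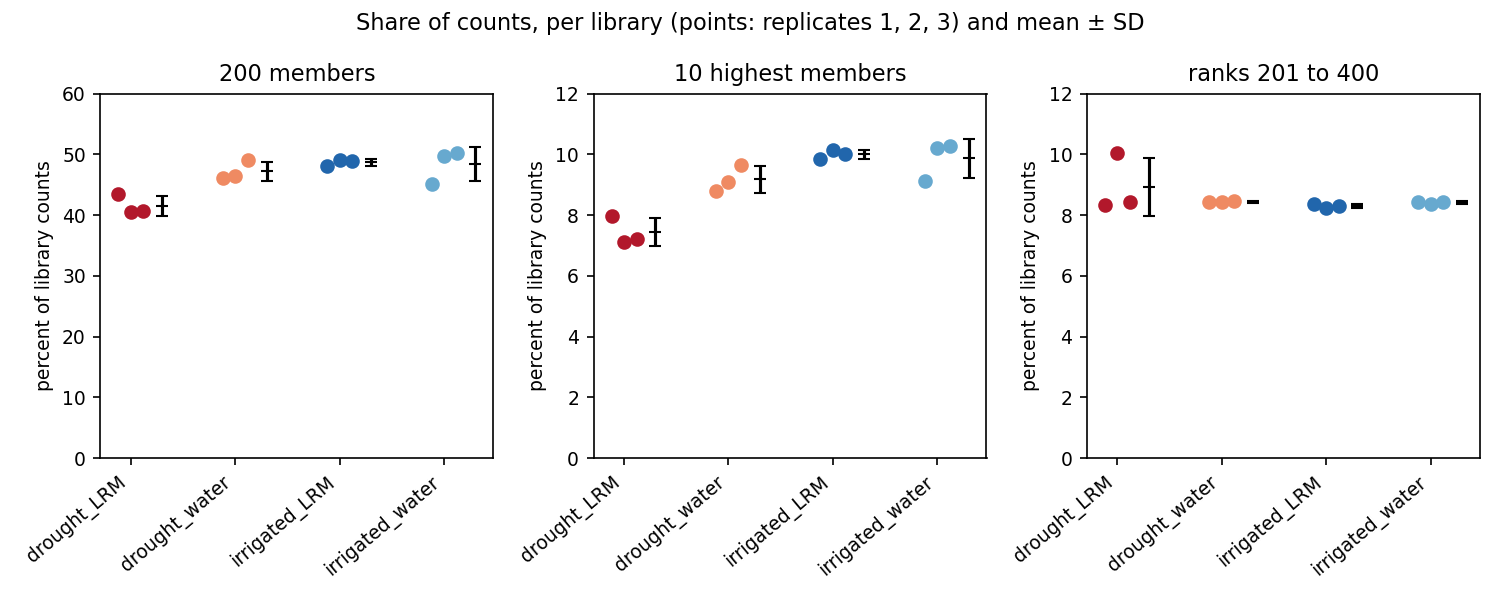
Percent of each library's counts (y axis, from 0) held by the 200 members, by their 10 highest, and by the 200 genes next in rank, for the 4 groups on the x axis; points are replicates 1, 2 and 3, and bars are mean ± SD. The drought_LRM libraries lie lowest for the members (40.5% to 43.5%) and for the 10 highest (7.11% to 7.98%), but not for the genes next in rank.

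The summed share of the genes that follow in abundance was not lower in all drought_LRM libraries. The 200 genes next in rank held 8.32%, 10.04% and 8.42% of counts in drought_LRM, against 8.38%, 8.23% and 8.29% in irrigated_LRM. The high value of drought_LRM 2 includes Traes_4BS_6A4AC84DB, at rank 215, which alone held 1.01% of that library's counts and 0.0904% and 0.134% in drought_LRM 1 and 3. Traes_3DL_B80EC2366, at rank 220, held 0.862% in drought_LRM 2, and 0.0754% and 0.131% in drought_LRM 1 and 3. Without both genes the remaining 198 held 8.15%, 8.16% and 8.15% in drought_LRM, against 8.15%, 8.18% and 8.25% in irrigated_LRM. These sums are shares of library totals; on the TMM scale, which differs from it, the median log2 change of the 200 genes with LRM was -0.30. Among the members, the 10 highest held 7.44% ± 0.469 of counts in drought_LRM and 9.996% ± 0.139 in irrigated_LRM (SD, n = 3), a relative change of -25.6%, beside -14.7% for all 200. In water-sprayed leaves the 10 highest held 9.18% ± 0.436 under drought and 9.86% ± 0.651 under full irrigation (SD, n = 3). This was a relative change of -6.93%, beside -2.46% for all 200. The 10 highest were chosen by their irrigated levels, which by itself favours lower values under drought, and these changes are given without a test.

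The deficit was spread over many transcripts. In mean CPM, 160 members were lower and 40 higher in drought_LRM than in irrigated_LRM, and the losses summed to -84735 CPM against gains of 13151 CPM. The 10 largest losses made up 30.6% of the summed loss, and 25 members held 50% of it. The largest single loss, -3726 CPM, was that of Traes_1AL_0F39673AF1 at rank 8, and it was 4.40% of the total. With water 120 members were lower and 80 higher in drought_water than in irrigated_water.

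The 3 highest transcripts stayed among the first 4 in every group, while the next 3 stood at ranks 7, 10 and 9 in drought_LRM. Traes_5BL_29847C42C on chromosome 5B was first in all 4 groups, with a mean of 13026 CPM in the irrigated libraries, and Traes_3AL_4F4132490 on 3A was second in all 4. In TMM-scaled CPM, in which the library total is corrected by edgeR's TMM factor, Traes_5BL_29847C42C had 11926, 9230 and 9473 in drought_LRM, 11965, 12273 and 13559 in drought_water, 13593, 13416 and 13249 in irrigated_LRM, and 11543, 14375 and 14969 in irrigated_water. Its drought_LRM libraries lay below the irrigated_LRM libraries, and the log2 change was -0.39 (SE 0.12, edgeR adjusted p = 0.0349), while drought_water and irrigated_water overlapped. Per transcript length (FPKM, as CPM divided by the length in kilobases) the order was different: Traes_5BL_29847C42C stood at 9880 ± 334 (SD over the 6 irrigated libraries) and Traes_3AL_4F4132490, with an implied length of 4163 nucleotides against 1319, at 2946 ± 176. Traes_5BL_E3BC16326, at rank 3, stood at 7085 ± 206 FPKM.

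Traes_4AL_B128F1907, Traes_4DS_5C2095EE7 and Traes_4BS_176348978, at ranks 4, 5 and 6, lie on the 3 chromosomes of group 4 and had similar counts. Over the 12 libraries the count of the 4B gene was 0.974 to 1.03 times that of the 4D gene, and the count of the 4A gene was 1.03 to 1.21 times that of the 4B gene and 1.004 to 1.24 times that of the 4D gene. Traes_4DS_5C2095EE7 had 5775, 6012 and 5207 TMM-scaled CPM in drought_LRM, 8046, 8637 and 9429 in drought_water, 9505, 10149 and 10341 in irrigated_LRM, and 8478, 10958 and 11075 in irrigated_water. Its drought_LRM values lay below those of all other libraries. The log2 change of drought with LRM was -0.82 (SE 0.11, edgeR adjusted p = 0.000206) for the 4D gene, -0.76 (adjusted p = 0.000315) for the 4B gene and -0.54 (adjusted p = 0.00324) for the 4A gene. Whether these 3 are copies of a single gene, or share reads, was not tested.

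In water-sprayed leaves drought left the list and its order almost as it was, whereas in LRM-sprayed leaves 25 of the 200 members dropped out of the 200 highest. In drought_water 194 members were still among the 200 highest by mean CPM, and in drought_LRM 175. Lists of 200 drawn in each group alone, which give no group the advantage of having set the rule, shared 175 genes between drought_LRM and irrigated_LRM, 193 between drought_water and irrigated_water, 181 between drought_LRM and drought_water, and 191 between irrigated_LRM and irrigated_water. For single libraries the overlap was 172 to 179 genes between drought_LRM and irrigated_LRM, below the 187 to 189 within drought_LRM and the 191 to 195 within irrigated_LRM. Between drought_water and irrigated_water it was 186 to 194, which overlaps the 188 to 196 within irrigated_water and lies mostly below the 193 to 196 within drought_water, with a median of 189. Across the 200 members Spearman's rho of the group means was 0.898 between drought_LRM and irrigated_LRM and 0.980 between drought_water and irrigated_water; the members share the libraries, and the values are a description.

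The widest move was that of Traes_1AL_00E379EFF, which stood at rank 442 in drought_LRM and at rank 137 in irrigated_LRM. It lost most ranks under water spray too, standing at rank 196 in drought_water and 136 in irrigated_water. Traes_4DL_03A5F7C7E gained most with LRM, with rank 86 in drought_LRM against 194 in irrigated_LRM, and Traes_2BS_762E60A0B with water, with rank 145 in drought_water against a place at the lower end of the 200 highest in irrigated_water. The 25 genes that entered the 200 highest of drought_LRM were selected on their level there, which fixes the direction of their change, so their calls are not counted. Their lowest place in the irrigated order was rank 858, and 5 of them came from beyond rank 400. The highest entrants, Traes_4BS_6A4AC84DB and Traes_3DL_B80EC2366, were high in drought_LRM 2 above all: they had 9549 and 8127 TMM-scaled CPM in drought_LRM 2, but 871.8 and 727 in drought_LRM 1 and 1184 and 1150 in drought_LRM 3. They also had 1267 and 1116 in irrigated_LRM 1 and 1404 and 1541 in irrigated_water 1, against 173 to 308 in the other irrigated libraries. Their highest values at both irrigations thus lay in single libraries. In drought_water Traes_4BS_6A4AC84DB had 277, 263 and 245, and Traes_3DL_B80EC2366 had 224, 216 and 225. In both genes each drought_LRM library thus lay above every drought_water library. Both were selected on their drought_LRM levels, so this is a description. Of the 6 entrants of drought_water the highest was Traes_1DL_BFD641AD9, with 1345, 1043 and 1013 TMM-scaled CPM in drought_water against 503, 626 and 849 in irrigated_water. Traes_2BL_D80441793, the next, had 1160, 957 and 748 in drought_water against 690, 612 and 650 in irrigated_water. Both were selected on their drought_water levels, and the values are a description with no test.

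With LRM, 112 of the 200 members were called lower under drought and 9 higher. The calls use edgeR's quasi-likelihood test at an adjusted p below 0.05 over all tested genes. The background is 8.6% of the tested genes called lower and 8.65% called higher in this comparison, 17.2% in all. Among the members 56.0% were lower and 4.50% higher. The median log2 change of the members was -0.38, with a middle range from -0.58 to -0.21, beside 0.00 over all tested genes. With library totals in place of TMM factors the member median was -0.23, beside 0.16 over all tested genes, and with limma on log2 FPKM it was -0.23, beside 0.07. Most changes were moderate, as 9 of the 112 that fell did so by at least 2-fold. A negative sign was seen in 178 of the 200, in 156 of the 200 genes next in rank and in 28774 of the 57226 tested genes. The libraries of the groups did not overlap for 149 members that were lower in drought_LRM and 12 that were higher, 80.5% of the members, against 32.8% of all tested genes. In the 200 genes next in rank the libraries did not overlap for 65%, and in the 600 after those, up to rank 1000, for 70.3%. Because high irrigated levels chose the members, the choice by itself favours lower values under drought, and nothing is read from this contrast alone. A list of 200 genes chosen in the irrigated_water libraries, which do not enter the contrast, had 111 lower and 9 higher genes and a median of -0.38; it shared 197 genes with the members. For the contrast with water, a list chosen in the irrigated_LRM libraries, which do not enter it, had 1 lower and 0 higher genes and a median of -0.07. For the contrast with LRM, a list chosen in the drought libraries, where the choice works in the opposite direction, had 99 lower and 15 higher. The list from irrigated_LRM shared 194 genes with the members and the list from the drought libraries 186. Lists that share so many genes with the members are not separate tests. Without drought_LRM 2 or 3, or irrigated_LRM 2 or 3, 74, 54, 60 and 57 members were called lower, and without irrigated_LRM 2 the members called higher numbered 4.

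**Figure D2:**
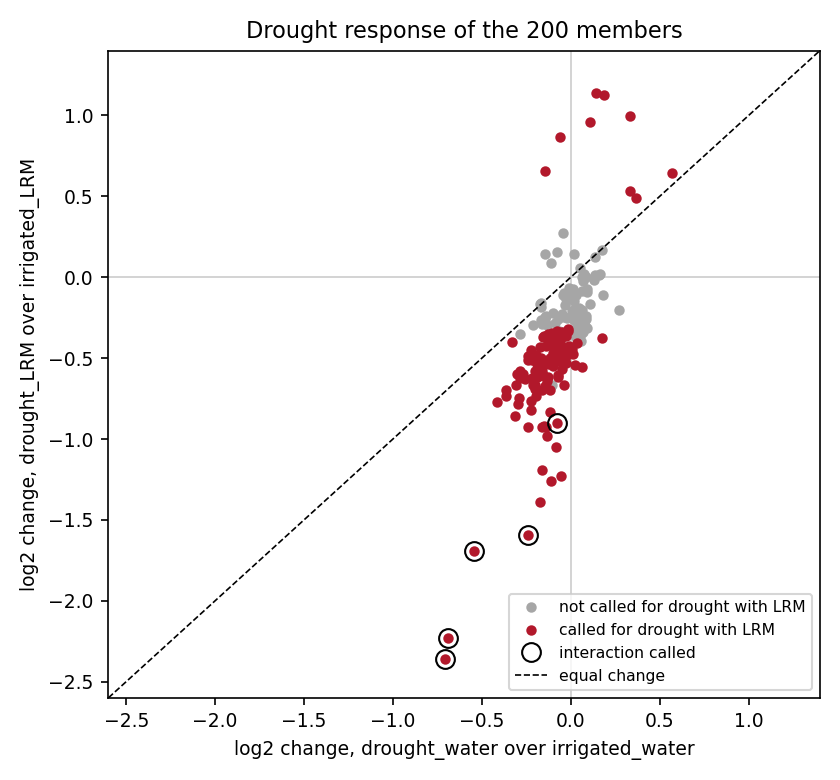
Log2 change of each member under drought with LRM (y axis, drought_LRM over irrigated_LRM) against that with water (x axis, drought_water over irrigated_water); red points are called with LRM, rings mark the 5 members with a called interaction, and the dashed line marks equal change. For 183 of 200 members the log2 change is lower with LRM than with water.

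The members that fell most were Traes_1AL_00E379EFF and Traes_1BL_22EDF8650, on chromosomes 1A and 1B. Traes_1AL_00E379EFF had 200.6, 224 and 267 TMM-scaled CPM in drought_LRM, 504, 797 and 925 in drought_water, 1147, 1098 and 1300 in irrigated_LRM, and 1270, 1301 and 1063 in irrigated_water. The drought_LRM libraries lay at the bottom, the drought_water libraries lay in between without overlapping either side, and the irrigated libraries lay together at the top. Its log2 change with LRM was -2.36 (SE 0.19, edgeR adjusted p = 3.92e-06). Traes_1BL_22EDF8650 had 295, 351 and 415 TMM-scaled CPM in drought_LRM, against 1633, 1543 and 1793 in irrigated_LRM, so that its log2 change was -2.23 (SE 0.19, edgeR adjusted p = 4.63e-06). With water their log2 changes were -0.71 (edgeR adjusted p = 0.112) and -0.69 (edgeR adjusted p = 0.116). The count of the 1A gene was 0.637 to 0.725 times that of the 1B gene across the 12 libraries, so that both moved in near proportion, while its ratio to Traes_1DL_CD211C1E2 on 1D ran from 0.759 to 1.33. Both calls held in 21 of 21 alternatives.

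The 9 members that rose with LRM lay at ranks 96 to 198, and the 2 that rose most were Traes_5DS_E8892706A and Traes_4DL_03A5F7C7E. Traes_5DS_E8892706A had 2561, 2262 and 3411 TMM-scaled CPM in drought_LRM, against 1465, 866 and 1402 in irrigated_LRM (log2 change 1.14, SE 0.23, edgeR adjusted p = 0.0034). In water-sprayed leaves it had 2913, 2074 and 1692 under drought and 2427, 1729 and 1888 under full irrigation, so that those groups overlapped, and its irrigated_water libraries lay above its irrigated_LRM libraries. Traes_4DL_03A5F7C7E had 1453, 1451 and 1724 TMM-scaled CPM in drought_LRM and 795, 564 and 759 in irrigated_LRM (log2 change 1.13, SE 0.17, edgeR adjusted p = 0.000457). With water it had 1406, 1013 and 899 under drought and 1096, 832 and 993 under full irrigation, so that those groups overlapped. Its irrigated_water libraries, too, lay above its irrigated_LRM libraries. Both calls of drought with LRM held in 21 of 21 alternatives. Neither gene was called between the sprays under drought (log2 difference 0.30 and 0.48, edgeR adjusted p = 0.491 and 0.105).

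In water-sprayed leaves 1 of the 200 members was called for drought, a share of 0.50% that is close to the background of 0.83%. By direction the background is 0.0856% lower and 0.744% higher. At an unadjusted p below 0.05 there were 20 members, beside 6504 of the 57226 tested genes. DESeq2 called 7 members lower and 2 higher, and limma called 0. The background shares are those of edgeR, and shares of all tested genes called by DESeq2 or limma are not given here. The median log2 change was -0.08, beside 0.01 over all tested genes. A negative sign was seen in 141 of 200 members, in 126 of the 200 genes next in rank and in 28160 of the 57226 tested genes. The libraries did not overlap for 9% of the members, against 18.4% of all tested genes. The called member, Traes_2AL_2C50DEE4C at rank 197, had 568, 570 and 579 TMM-scaled CPM in drought_water, against 765, 756 and 766 in irrigated_water. The groups were separate and unusually tight, and the log2 change was -0.41 (SE 0.09, edgeR adjusted p = 0.0398). This call was lost in 16 of 21 alternatives, with adjusted p up to 0.199, among them the omission of any irrigated or drought_water library and of drought_LRM 3. Without drought_water 3, 2 members were called lower, and Traes_2AL_2C50DEE4C was not among them. The same gene fell with LRM, to 433, 371 and 431 TMM-scaled CPM in drought_LRM against 692, 706 and 714 in irrigated_LRM (log2 change -0.77, edgeR adjusted p = 3.63e-05).

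The position of single libraries shows how irrigated_water 1 bears on this comparison. Relative to the mean of the irrigated groups, the median member stood at -0.15, -0.14 and 0.05 on the log2 scale in drought_water 1, 2 and 3, and at -0.26, 0.09 and 0.13 in irrigated_water 1, 2 and 3. The drought_LRM libraries stood at -0.29, -0.42 and -0.49 and the irrigated_LRM libraries at -0.06, 0.02 and 0.03. Without irrigated_water 1 the members' median change of drought with water was -0.20, and without irrigated_water 3 it was 0.00, with 0 members called in either case.

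The changes under the sprays were measured in separate libraries. Over all 200 members, 135 had a negative sign under both sprays, 16 a positive sign under both, 43 a negative sign with LRM and a positive one with water, and 6 the reverse. Of the 112 members lower with LRM, 106 had a negative sign with water, where their median log2 change was -0.13, beside -0.54 with LRM; of all 200 members 141 were negative with water. Of the 9 members higher with LRM, 7 had a positive sign with water. Across the 200 members the log2 changes correlated with r = 0.71 (Spearman 0.69), which describes these genes in shared libraries.

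The direct comparison of the sprays under drought uses no library that chose the members, and there LRM-sprayed leaves had lower levels of 46 members and higher levels of 2. The background is 4.23% of tested genes called lower and 4.26% called higher, 8.49% in all. Among the members 23.0% were lower and 1% higher, with a median log2 difference of -0.32 beside -0.01 over all tested genes. With library totals the member median was -0.20, beside 0.11 over all tested genes, and with limma it was -0.21, beside 0.04. The sign was negative in 183 of 200 members, beside 29418 of the 57226 tested genes. It was negative in 156 of the 200 genes next in rank and in 403 of the 600 after those. The libraries did not overlap for 125 members lower and 4 higher in drought_LRM, 64.5% of the members, against 27.0% of all tested genes. This was not particular to the members. The libraries did not overlap for 65.5% of the 200 genes next in rank, and for 62.3% of the 600 after those, up to rank 1000. Of the 200 genes next in rank, 24.0% were lower and 6.50% higher, with a median of -0.28. Of the 600 genes after those, 26.5% were lower and 7.33% higher, with a median of -0.20. The count of lower members rested on single libraries: it was 17, 26 and 21 without drought_water 3, drought_water 2 or drought_LRM 3, and 102 without irrigated_water 1, a library outside the contrast. Without irrigated_water 1, irrigated_LRM 1 and drought_LRM 2 together it was 79, and DESeq2 called 83 lower and 4 higher. The background above is that of the main edgeR fit, and it does not apply to these 2 counts. The 2 higher calls became 1 without drought_LRM 1, drought_water 2 or drought_water 3, and 4 without drought_water 1.

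The members with the largest differences were again the pair on 1A and 1B. The levels of Traes_1AL_00E379EFF given above correspond to a log2 difference of -1.69 between drought_LRM and drought_water (SE 0.19, edgeR adjusted p = 0.000655). Traes_1BL_22EDF8650 had 295, 351 and 415 TMM-scaled CPM in drought_LRM and 764, 1175 and 1365 in drought_water (log2 difference -1.64, SE 0.18, edgeR adjusted p = 0.000693). Higher with LRM were Traes_6AS_82E93D872 and Traes_4DS_093764887. Traes_6AS_82E93D872 had 1953, 1512 and 1853 TMM-scaled CPM in drought_LRM, against 1292, 934 and 846 in drought_water, and 785 to 1017 in the irrigated libraries. Its groups under drought did not overlap (log2 difference 0.79, SE 0.15, edgeR adjusted p = 0.00652). Traes_4DS_093764887 had 1541, 1367 and 1407 TMM-scaled CPM in drought_LRM against 1130, 888 and 847 in drought_water (log2 difference 0.59, SE 0.13, edgeR adjusted p = 0.015). Its call was lost without drought_LRM 1, drought_water 2 or drought_water 3, with adjusted p up to 0.0856, and the other 3 calls held in 21 of 21 alternatives.

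**Figure D3:**
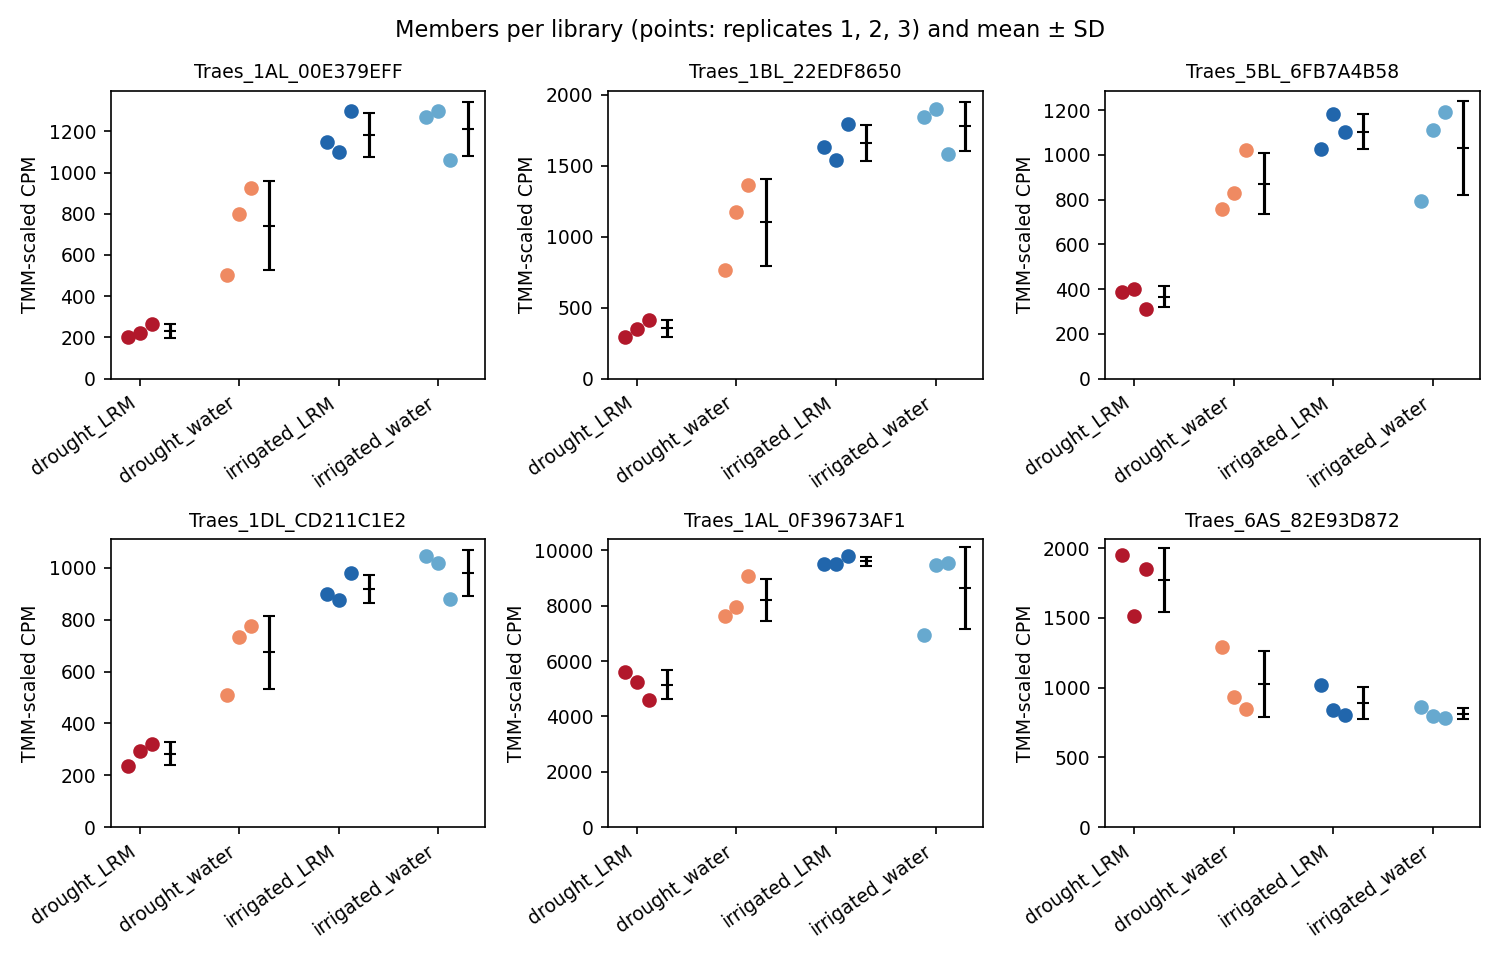
TMM-scaled CPM (y axes, from 0) of the 5 members with a called interaction and of Traes_6AS_82E93D872 in the 4 groups; points are replicates 1, 2 and 3, and bars are mean ± SD. In the first 5 panels the 3 drought_LRM libraries lie below all others, and for Traes_6AS_82E93D872 they lie above all others.

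Under full irrigation no member differed between the sprays by edgeR, as for all tested genes, of which 0% were called. At an unadjusted p below 0.05 there were 14 members, beside 4977 of the 57226 tested genes. DESeq2 called 2 members lower and 2 higher, and limma called 0. The share of all tested genes that DESeq2 called is not given here. The libraries did not overlap for 14.0% of the members, against 16.1% of all tested genes. The median log2 difference was 0.00, and 102 members had a negative and 98 a positive sign. The 2 members with the smallest p were Traes_3B_78F5B1B09 and Traes_4DS_093764887, with edgeR adjusted p of 0.393 and 0.412. DESeq2 called both higher, with adjusted p of 0.00512 and 0.0405. Traes_3B_78F5B1B09 had 1255, 1045 and 943 TMM-scaled CPM in irrigated_LRM, against 810, 754 and 821 in irrigated_water. Traes_4DS_093764887 had 1207, 971 and 894 in irrigated_LRM, against 802, 675 and 747 in irrigated_water. In both genes the libraries did not overlap, and replicate 1 was the highest of irrigated_LRM.

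The interaction, which tests whether drought changed a member differently under the sprays, called 5 of the 200, all negative. They are 2.50% of the members, beside a background of 0.851% of tested genes, 0.384% with a negative and 0.467% with a positive interaction. Of the 200 genes next in rank 4.50% were called, 4% negative and 0.5% positive, with a median log2 interaction of -0.28. Of the 600 genes after those, up to rank 1000, 3.17% were called, with a median of -0.22. A share above the background was thus not particular to the members. The median interaction of the members was -0.33 on the log2 scale, beside -0.02 over all tested genes. With library totals it was -0.21, beside 0.11, and with limma -0.21, beside 0.05. Beyond Traes_1AL_00E379EFF (-1.65, SE 0.26, edgeR adjusted p = 0.0192) and Traes_1BL_22EDF8650 (-1.54, SE 0.25, edgeR adjusted p = 0.0224), the 3 other members are named because the count is small, after their values were seen. Traes_5BL_6FB7A4B58 had 386, 400 and 313 TMM-scaled CPM in drought_LRM, 760, 831 and 1024 in drought_water, 1025, 1182 and 1103 in irrigated_LRM, and 794, 1111 and 1190 in irrigated_water (interaction -1.35, SE 0.22, edgeR adjusted p = 0.0221). Traes_1DL_CD211C1E2 had 236, 295 and 321 in drought_LRM, 511, 735 and 775 in drought_water, 900, 876 and 980 in irrigated_LRM, and 1046, 1018 and 881 in irrigated_water (interaction -1.15, SE 0.21, edgeR adjusted p = 0.0324). Traes_1AL_0F39673AF1, at rank 8 the most abundant of the 5, had 5608, 5260 and 4587 in drought_LRM, 7615, 7945 and 9069 in drought_water, 9521, 9505 and 9780 in irrigated_LRM, and 6947, 9478 and 9540 in irrigated_water (interaction -0.82, SE 0.18, edgeR adjusted p = 0.0476). In the last gene the low value of irrigated_water 1 lay below all drought_water libraries. The count was 0 without irrigated_water 2, drought_water 2, irrigated_LRM 1 or irrigated_LRM 2, 1 without irrigated_LRM 3, 2 without drought_LRM 2, and 3 without drought_LRM 1, drought_water 3 or irrigated_water 3. It was 8 lower and 2 higher without drought_water 1. Library totals gave 11 lower, limma 9 lower, and DESeq2 20 lower and 2 higher. The background above is that of the main edgeR fit and does not apply to these alternatives.

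**Figure D4:**
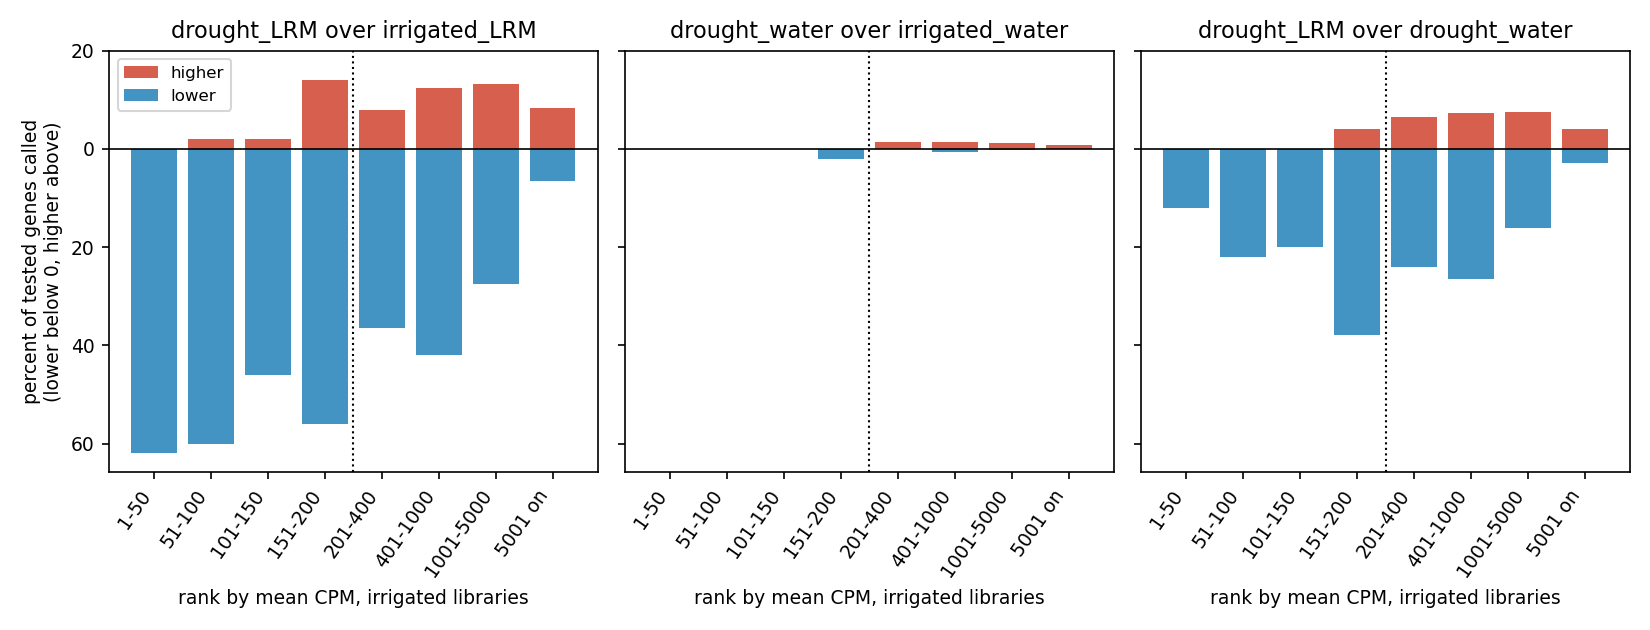
Percent of tested genes called higher (above 0) and lower (below 0) by edgeR in classes of abundance rank (x axis, by mean CPM in the irrigated libraries); the dotted line marks the limit of the 200 members. Under drought with LRM the percent called lower is 46.0% to 62.0% in the 4 classes of members and 6.48% beyond rank 5000.

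The rank classes are cut by levels in the irrigated libraries, which also enter drought with LRM, so their values in that contrast are a description from which nothing is read. The median log2 change of drought with LRM was -0.40, -0.40, -0.34 and -0.38 in 4 successive classes of 50 members, from the most to the least abundant. In these classes 62.0%, 60%, 46.0% and 56.0% were called lower and 0%, 2%, 2% and 14.0% higher. The 200 genes next in rank had 36.5% lower and 8% higher with a median of -0.30. The 600 genes after those, up to rank 1000, had 42.0% lower and 12.3% higher with the same median of -0.30, and the following 4000 had 27.5% lower and 13.3% higher with a median of -0.12. Between the sprays under drought, 12% of the 50 highest members and 38.0% of the 50 lowest were called lower, at medians of -0.31 and -0.36.

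The subgenomes contributed evenly in number, but the chromosome groups did not. The identifiers place 62 members on A, 73 on B and 65 on D chromosomes, which is 31.0%, 36.5% and 32.5%, beside 32.6%, 34.7% and 32.8% of tested genes. The exact 95% binomial intervals of the members' shares were 24.7% to 37.9% for A, 29.8% to 43.6% for B and 26.1% to 39.5% for D. Chromosome group 2 held 76 members, 38.0% (exact 95% interval 31.2% to 45.1%), beside 17.5% of tested genes, with 27 on 2A, 29 on 2B and 20 on 2D. Group 5 held 40 members, 20.0% (14.7% to 26.2%) beside 15.3% of tested genes, of which 21 lay on 5B, 14 on 5D and 5 on 5A. Group 3 was thinly represented, with 13 members (6.50% beside 15.7% of tested genes), and 10 of these lay on 3B. Group 1 held 12 members (6% beside 12.4%). Members that are copies of each other are not independent, so these intervals, which cover counting error only, are too narrow. Among the 200 genes next in rank, group 2 held 19.0% of genes and group 3 held 17.5%, near their shares of tested genes.

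**Figure D5:**
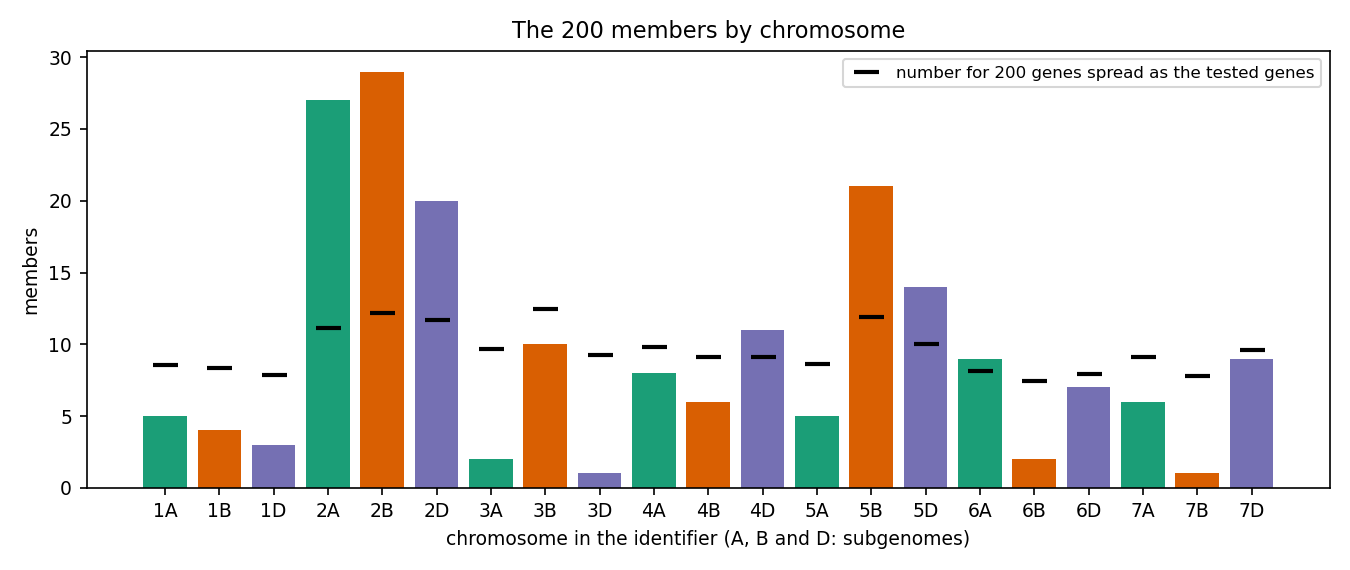
Number of members (bars, y axis) on each chromosome named in the identifiers (x axis), coloured by subgenome; black marks show the number that 200 genes would have if spread over chromosomes as the tested genes are. Bars for 2A, 2B and 2D (27, 29 and 20) and for 5B (21) stand above their marks.

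Within the members' own counts the balance of subgenomes moved little. Subgenome D held 30.0% ± 0.377 of member counts in drought_LRM, 29.5% ± 0.27 in drought_water, 29.0% ± 0.129 in irrigated_LRM and 29.4% ± 0.258 in irrigated_water (SD, n = 3). Subgenome B held 37.2% ± 0.0508, 37.7% ± 0.174, 37.9% ± 0.12 and 37.9% ± 0.057 in the same order of groups. In drought_LRM the D share lay between 29.71% and 30.5%, above the irrigated_LRM range of 28.9% to 29.2%. It overlapped the drought_water range of 29.21% to 29.74%. The B share in drought_LRM lay between 37.2% and 37.3%, below the irrigated_LRM range of 37.8% to 38.1% and the drought_water range of 37.5% to 37.9%. The members called lower under drought with LRM numbered 33 of 62 on A, 45 of 73 on B and 34 of 65 on D, with medians of -0.34, -0.42 and -0.36. Over all tested genes 8.72% of A, 8.46% of B and 8.62% of D were called lower in this contrast.

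Members on group 1 chromosomes had the most negative median change under drought with LRM of the 7 chromosome groups, and those on group 7 the least negative. The 12 members of group 1 held 2.11% ± 0.114 of counts in drought_LRM, 2.73% ± 0.172 in drought_water, 3.02% ± 0.0252 in irrigated_LRM and 2.92% ± 0.152 in irrigated_water (SD, n = 3). With LRM 9 of these 12 were called lower under drought, with a median log2 change of -0.76 and a range from -2.36 to -0.20, and 4 of the 5 members with a called interaction were among them. Of the 16 members on group 7, 3 were called lower and 1 higher, with a median of -0.23. Group 7 held 2.92% ± 0.118 of counts in drought_LRM and 2.94% ± 0.0412 in irrigated_LRM (SD, n = 3). Over all tested genes 8.93% of group 1, 9.23% of group 2, 8.82% of group 6 and 7.504% of group 7 were called lower in this contrast. Members on group 6 held 7.71% ± 0.0946 of member counts in drought_LRM, 7.12% ± 0.186 in drought_water, 6.83% ± 0.0931 in irrigated_LRM and 6.68% ± 0.101 in irrigated_water (SD, n = 3). On this scale each drought_LRM library lay above all others, although 6 of the 18 were called lower with LRM and 1 higher. Group 2, with the most members, held 33.4% ± 0.34 of member counts in drought_LRM and 33.8% ± 0.245 in irrigated_LRM (SD, n = 3), and 49 of its 76 members were called lower and 3 higher. The classes are small and hold likely copies, and the difference between them was not tested.

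The members had a shorter median length than the tested genes as a whole. Their coefficient of variation between replicates, with counting noise included, was also lower. Transcript length, as implied by the counts and the deposited FPKM, had a median of 1325 nucleotides among members, from 207 to 14050, beside 1548 for the 200 genes next in rank and 1682 over the 53785 tested genes with a length. Of the members, 159 were also among the 200 highest per length. The coefficient of variation within groups had a median of 6.73% among members, 8.63% in the 200 genes next in rank and 18.3% over all tested genes. By group the median coefficient of variation among members, with counting noise included, was 8.30% in drought_LRM, 4.84% in drought_water, 4.54% in irrigated_LRM and 7.48% in irrigated_water.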

How the data were processed

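The authors deposited whole-number read counts per gene and library, and a table without a named unit that was taken as FPKM, because nearly all its values follow from the counts, the library total and 1 fixed length for each gene. Of 555204 values with over 20 counts, 176, in 174 tested genes and 0 members, were more than 100 times too high (median 999.6 times). They were left as deposited in the limma fit, and the per-length values were rebuilt from the counts. Tools listed in the submitters' processing notes are FastQC, HISAT2, StringTie and DESeq2. Genome build, annotation, strandedness and the rule for multi-mapping reads were not given in the sources used here. Library totals ran from 17541561 to 47305447 counts. Total counts limit precision, and intervals cover counting error only.

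The members and lists were chosen with earlier results of these data known. Counts were tested with edgeR 4.0.16 (quasi-likelihood, R 4.3.3), TMM factors and filterByExpr, in a single fit of 4 group means over 12 libraries. Adjusted p-values are Benjamini-Hochberg over 57226 genes, called below 0.05. Standard errors come from the test's F value. The procedure was tested on simulated data with changes of at least 2-fold, larger than most changes reported here, and no shifts of single libraries. The simulation therefore says nothing of smaller changes or of the dependence on single libraries. Lengths were implied from counts above 20 and the FPKM. The named genes are the 6 highest members, for each contrast the 2 most positive and 2 most negative called members whose libraries did not overlap (for the interaction without that condition, and where none was called, the 2 with the smallest p), the 2 genes on either side of the lower limit, the widest rank moves, and the 2 highest entrants of each drought group. Alternatives were DESeq2 1.42.0, limma 3.58.1 on log2(FPKM + 1), other scalings, filters, groups, blocks and lists, and the omission of libraries. Replicates differed by more than sampling noise (chi-square per degree of freedom of 4.17 or more).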

Additional observations from a re-analysis of the deposited data

Results flagged for a closer look

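A difference in the drought response between LRM-sprayed and water-sprayed leaves was tested as the interaction, and 5 members passed the threshold. The count was 0 without any one of irrigated_water 2, drought_water 2, irrigated_LRM 1 or irrigated_LRM 2, 11 with library totals, and 20 lower and 2 higher with DESeq2. The alternative counts are given without a share over all tested genes. The interaction on the log2 scale was -1.65 for Traes_1AL_00E379EFF, -1.54 for Traes_1BL_22EDF8650, -1.35 for Traes_5BL_6FB7A4B58, -1.15 for Traes_1DL_CD211C1E2 and -0.82 for Traes_1AL_0F39673AF1. Traes_1AL_00E379EFF lost its call in 5 and Traes_1BL_22EDF8650 in 7 of 20 alternatives, with edgeR, DESeq2 or limma adjusted p up to 0.13 and 0.143. In all 5 members the drought_LRM libraries lay below all other libraries.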

How the results depend on the processing

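Each member had 4164 counts or more in each library, and the part of depth in the calls was not tested. A recomputed count was taken as kept within 1.5 times the reported count, a median or share of counts within the spread between replicates, and a subgenome's percent within its 95% interval. By these criteria 376 values were kept and 71 moved; of the named genes' values 238 kept their side of the threshold, 31 lost it, 2 gained it and 0 reversed. The causes were not tested. Scaling by library totals moved the median of all tested genes to 0.16 in the contrast of drought with LRM. The same shift was 0.11 between sprays under drought and 0.11 in the interaction. The members' own medians were then -0.23, -0.20 and -0.21, and relative to all tested genes -0.38, -0.31 and -0.32. With limma on FPKM the members' own medians were -0.23, -0.21 and -0.21, and relative to all tested genes -0.30, -0.25 and -0.27.

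Drought with LRM (112 lower, 9 higher) had 14 higher with library totals and with limma, 15 with the list from drought libraries and 5 with the list per length; the share of counts changed by -5.23 percentage points with the list from drought libraries. Drought with water (1 lower, 0 higher) had 0 lower and 1 higher with library totals, 7 lower and 2 higher with DESeq2, and 0 lower without the filter, with only the 2 groups, with limma and without 3 libraries. It had 0 lower with each of the lists from drought libraries, from all 12 libraries and per length, and 2 higher with each of the first of these lists and the second. LRM under drought (46 lower, 2 higher) had 4 higher with library totals, 83 lower and 4 higher with DESeq2, 79 lower without 3 libraries, and 10, 8 and 6 higher with the lists from drought libraries, from all 12 libraries and per length. LRM under full irrigation (0) had 2 lower and 2 higher with DESeq2. All counts from alternatives in this paragraph are given without a share over all tested genes. The interaction (5 lower, 0 higher) had 11 lower with library totals, 20 lower and 2 higher with DESeq2, 8 lower without the filter, 9 with limma, 0 without 3 libraries, 2 with the list from drought libraries and 3 with the list per length.

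With each library left out in turn, lower and higher calls ran from 54 to 132 and from 4 to 10 for drought with LRM, 0 to 2 and 0 to 0 for drought with water, 17 to 102 and 1 to 4 for LRM under drought, 0 to 0 and 0 to 0 for LRM under full irrigation, and 0 to 8 and 0 to 2 for the interaction. The member medians ran from -0.44 to -0.35, -0.20 to 0.00, -0.37 to -0.25, -0.11 to 0.08 and -0.39 to -0.22 in the same order. The share of counts ran from -8.13 to -6.65 percentage points for drought with LRM, -2.83 to -0.25 for drought with water, -6.64 to -4.77 for LRM under drought and -1.35 to 1.24 for LRM under full irrigation.

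The replicate numbers are shared by the groups. Of 18 same-numbered pairs 5 had a correlation of deviations above 0.1 (range -0.196 to 0.266), and 3 of 12 libraries correlated best with their own number. With 3 libraries per group, these values cannot settle whether same-numbered libraries were paired. With the replicate block 102 members were lower and 9 higher for drought with LRM, 0 lower for drought with water, 48 lower and 3 higher for LRM under drought, and 6 lower and 1 higher for the interaction. For the interaction no fit of only 2 groups was possible.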
